A study of Mus musculus with 2 samples.

Results

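Among the open chromatin sites of the adult mouse spleen are 6690 sites that DNase-seq found in both animals studied but that appear in neither animal's stringent peak list. DNase-seq cuts nuclei with the enzyme DNase I, which reaches DNA where regulatory proteins have displaced nucleosomes, so a pile of cuts marks a promoter, enhancer or insulator. The study holds 2 libraries of 1 group, each from the whole spleen of a different male B6CASTF1/J mouse of 2 months, an F1 hybrid of C57BL/6J and CAST/EiJ, with no treatment and no second condition. They are called animal 1 and animal 2 after their replicate numbers. The authors deposited a longer and a shorter peak list per library. The sites were chosen by presence in these lists: a peak of the longer list that overlapped a longer-list peak of the other animal by 1 bp or more and overlapped no shorter-list peak of either animal. By that rule 6825 of 79246 longer-list peaks (8.61%) were reproducible weak peaks in animal 1 and 6871 of 77231 (8.90%) in animal 2. Overlapping peaks of the animals were merged into the 6690 sites, of which 6620 join exactly 1 peak of each animal.

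The remaining peaks form a pair of classes used for comparison. Those at stringent peaks, which overlap a shorter-list peak of either animal, numbered 57466 in animal 1 and 57788 in animal 2. Those weak in 1 animal, which overlap neither a shorter-list peak nor a peak of the other animal, numbered 14955 and 12572. Of all weak peaks, 31.3% in animal 1 and 35.3% in animal 2 were therefore found again. Both animals' values for the reproducible weak peaks describe nearly the same sites, so an SD over the animals is small by construction. The series has 1 group and no second condition to compare it with, and peaks of 1 library are not replicates, so no test was made. Values are given as descriptions. Wilson 95% intervals cover counting error over peaks only.

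A stretch of open chromatin is often held open by sequence-specific factors, and where such a protein sits on the DNA it shields a few bases from the enzyme, which leaves a footprint. The spleen combines white pulp, where B and T lymphocytes gather, with red pulp, where macrophages clear old red cells, all within a scaffold of endothelial and stromal cells. In a whole organ, an opening in few cells and a weaker opening in many cells give the same low signal and cannot be told apart. At promoters, all 18 B cell genes of a marker list had a stringent peak, against 1 of 11 hepatocyte genes. The lists did not all divide this way. Pooled, 125 of 245 genes of spleen cell types (51.0%) and 21 of 59 genes of other tissues (35.6%) had one. Of all protein-coding genes 12867 of 21938 (58.65%) did, a share above both. In the neutrophil list 1 of 16 did.

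The sequences below are 8 reproducible weak sites, shown because each holds a factor's motif inside footprints of both animals and is the highest such site for that motif. They are the plus strand of the mm10 reference, 5′ to 3′, which carries the C57BL/6J sequence; the CAST/EiJ allele may differ. Capitals mark the motif match or its reverse complement. At the site near Cnp the capitals span overlapping matches on both strands.
CTCF site near Cbx8, chr11:119054618-119054780: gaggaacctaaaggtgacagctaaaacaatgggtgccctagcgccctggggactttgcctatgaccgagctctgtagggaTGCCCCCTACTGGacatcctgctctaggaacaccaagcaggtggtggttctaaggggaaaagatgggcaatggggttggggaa
NF-Y site near Ncf1, chr5:134227709-134227900: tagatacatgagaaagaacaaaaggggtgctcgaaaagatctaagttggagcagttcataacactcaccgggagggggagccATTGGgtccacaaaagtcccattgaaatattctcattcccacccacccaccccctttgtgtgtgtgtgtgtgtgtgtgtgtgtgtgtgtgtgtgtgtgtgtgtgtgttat
PU.1 site near Dnajb12, chr10:59901124-59901293: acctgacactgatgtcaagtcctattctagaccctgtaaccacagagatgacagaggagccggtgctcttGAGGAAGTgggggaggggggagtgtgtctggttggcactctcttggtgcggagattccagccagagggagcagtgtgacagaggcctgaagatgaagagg
EBF site near Cnp, chr11:100578961-100579149: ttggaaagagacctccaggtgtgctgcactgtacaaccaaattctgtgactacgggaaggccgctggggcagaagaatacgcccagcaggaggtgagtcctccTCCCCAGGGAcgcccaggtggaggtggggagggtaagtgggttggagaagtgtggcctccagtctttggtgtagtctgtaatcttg
RUNX family site near Rgs10, chr7:128377200-128377363: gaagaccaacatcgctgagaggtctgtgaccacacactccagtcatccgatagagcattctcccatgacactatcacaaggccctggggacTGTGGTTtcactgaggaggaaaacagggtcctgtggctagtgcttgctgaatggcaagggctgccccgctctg
E-box CAGCTG site near Plxnb2, chr15:89173000-89173200: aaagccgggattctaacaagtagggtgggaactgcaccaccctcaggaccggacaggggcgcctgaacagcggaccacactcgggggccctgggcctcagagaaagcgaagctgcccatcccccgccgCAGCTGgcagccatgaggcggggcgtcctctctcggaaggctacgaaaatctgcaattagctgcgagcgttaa
E-box CACGTG site near Sh3bp5, chr14:31440855-31440986: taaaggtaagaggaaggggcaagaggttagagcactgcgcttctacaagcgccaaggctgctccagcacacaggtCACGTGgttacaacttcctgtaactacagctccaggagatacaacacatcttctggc
AP-1 site near Upk2, chr9:44462081-44462260: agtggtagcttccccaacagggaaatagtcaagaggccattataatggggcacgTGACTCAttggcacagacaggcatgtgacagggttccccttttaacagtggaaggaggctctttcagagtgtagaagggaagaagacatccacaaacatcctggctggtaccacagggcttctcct
The motif letters searched were CCAAT for NF-Y, GAGGAAGT for PU.1, TCCCNNGGG for EBF, TGTGGTT for RUNX, CAGCTG and CACGTG for the E-boxes and TGANTCA for AP-1. The CTCF consensus was searched by name. CTCF is the insulator protein that anchors chromatin loops, PU.1 is the master factor of myeloid and B cells, and EBF fixes the B cell fate. RUNX factors act in blood stem cells and lymphocytes, NF-Y binds promoters, E-boxes bind helix-loop-helix factors, and AP-1 answers activation signals. A match is a description of the letters and not a binding assay.

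The CTCF site near Cbx8 lies in intergenic DNA 13730 bp from the gene's nearest transcription start site (TSS), and its height was 1.06 in animal 1 and 1.58 in animal 2. The NF-Y site is the promoter of Ncf1, which encodes a subunit of the phagocyte NADPH oxidase. It sits 5 bp from a TSS, reached 1.25 and 2.00, and held 4 footprints in each animal. All 4 of animal 1 overlapped a footprint of animal 2. Of the site's bases 52.1% are masked as repeat. The PU.1 site lies 21583 bp from Dnajb12 in intergenic DNA, with heights of 1.70 and 1.73. The EBF site is in an intron, 3164 bp from Cnp, at 1.14 and 1.27. The RUNX site lies in the promoter of Rgs10, 945 bp from its TSS, at 0.895 and 0.883. The other 3 stood at 0.888 and 1.06 near Plxnb2, at 1.10 and 0.930 near Sh3bp5, and at 0.953 and 0.754 near Upk2. These examples are among the higher sites of the set, since the typical site is lower.

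Height, the authors' peak signal, followed from the rule and is described without a test. The median reproducible weak peak had a height of 0.451 in animal 1 and 0.536 in animal 2, against 1.33 and 1.54 at stringent peaks and 0.380 and 0.394 for peaks weak in 1 animal. Their range ran from 0.0573 to 2.71 in animal 1 and from 0.0679 to 2.23 in animal 2. In each library every height lay within 0.00698 (animal 1) or 0.00737 (animal 2) of a step from a whole multiple of a smallest step, 0.00716 in animal 1 and 0.00679 in animal 2. The median weak peak was worth 63 and 79 steps and the lowest 8 and 10, whereas the median peak at stringent sites was worth 186 and 227. If a step is a single cut, which the sources used here do not state, these are the counts behind each value. Weak peaks were also narrower, with median widths of 136 and 131 bp against 200 and 194 bp.

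**Figure D1:**
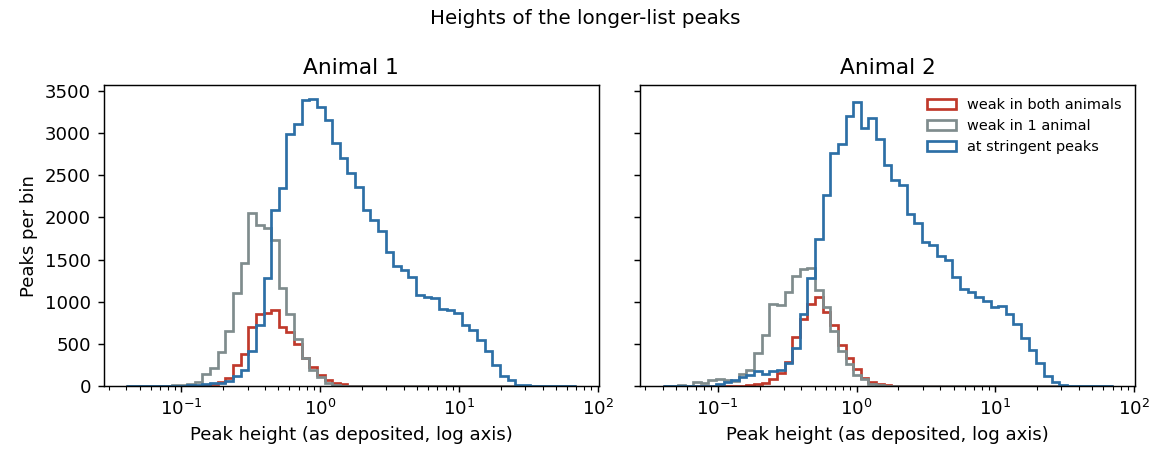
Number of longer-list peaks by height (log axis, deposited units), with 1 panel per animal and 1 line per peak class. The reproducible weak peaks (red) centre on 0.451 in animal 1 and 0.536 in animal 2 and overlap the lower flank of the peaks at stringent sites (blue).

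The limit that separates the lists lies at a false discovery rate (FDR) of 0.001 in the authors' cut-rate files. Every shorter-list peak held an interval under it, with the highest best FDR at 0.000995 in animal 1 and 0.000989 in animal 2. The median best FDR of the reproducible weak peaks was 0.00564 and 0.00756. The limit did not separate the lists fully, because 818 reproducible weak peaks of animal 1 (12.0%) and 544 of animal 2 (7.92%) also held an interval under 0.001. The 5 sites just inside the limit had best FDR values from 0.001 to 0.001004 and heights between 0.258 and 0.930. The 5 shorter-list peaks just outside had values from 0.000970 to 0.000995 with heights of 0.365 to 0.645 in animal 1, and from 0.000962 to 0.000989 with heights of 0.306 to 0.659 in animal 2. Around the limit, the heights on its sides overlapped.

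The same site had a similar height in both animals, in part by construction. Its log2 ratio, animal 2 over animal 1, had a median of 0.22 (SD 0.31 across sites), the same median as at stringent sites, and 75.5% of the sites were higher in animal 2. Only 24 sites (0.359%) differed by over 2-fold, and this share was not counted at stringent peaks. The rule leaves out a site that enters a shorter list in 1 animal or is missing from the other's longer list. Merging also left out 92 peaks of animal 1 and 141 of animal 2, whose partner overlapped a shorter-list peak. Pearson's r between the animals' log2 heights was 0.83 across sites, against 0.95 across 55064 matched stringent peaks, whose range of heights is wider. The sites are not independent replicates. The site furthest in favour of animal 2 lay near the pheromone receptor gene Vmn1r2 at 0.301 and 0.828, a log2 ratio of 1.46, and all of its bases are masked as repeat. Next came sites near Ephb6 (1.19), Pccb (1.17), Zswim2 (1.16) and Cdx2 (1.14), of which those near Pccb and Zswim2 are 78.8% and 90.1% repeat. In favour of animal 1 were sites near Asah2 (-1.16), Calhm5 (-1.04), Gm15319 (-1.02), Ubash3b (-0.98) and Tbl1xr1 (-0.90).

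Reproducible weak sites lay away from promoters more often than stringent ones. With a promoter drawn as 1 kb on each side of a protein-coding TSS, 22.5% ± 0.148 (SD, n = 2) of the reproducible weak peaks had their midpoint in a promoter, against 37.9% ± 0.984 of the peaks at stringent sites. Introns held 35.8% ± 0.0778 of them, against 27.1% ± 0.720, and intergenic DNA 36.5% ± 0.0952, against 31.5% ± 0.393. Exons held 5.21% ± 0.0248 against 3.58% ± 0.129 (SD, n = 2 each). In each of these 4 locations the values of the animals did not overlap between the classes. The weak class holds nearly the same sites in both animals, so its values lie close by construction and are not independent. Peaks weak in 1 animal were less even: their promoter share was 18.9% in animal 1 and 23.6% in animal 2, which spans that of the reproducible ones. As sites, 1464 were in promoters, 354 in exons, 2409 in introns and 2463 in intergenic DNA.

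**Figure D2:**
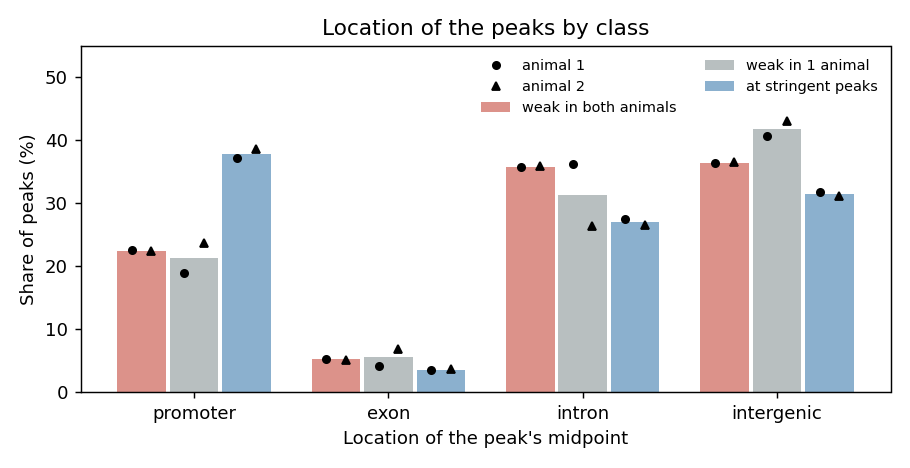
Share of peaks (%) by location of the midpoint, for the 3 peak classes; bars are means of the animals and the symbols are animal 1 and animal 2. The reproducible weak peaks sit at 22.5% in promoters against 37.9% at stringent sites, and at 35.8% in introns against 27.1%.

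The promoter peaks among the reproducible weak peaks had a median distance of 352 bp from the nearest TSS in animal 1 and 359 bp in animal 2, against 95 and 94 bp for promoter peaks at stringent sites. Promoter peaks weak in 1 animal had 449 and 330 bp, which spans those values. Only 416 sites (6.22%) lay within 100 bp of a TSS. Outside promoters the median distance was 16552 bp over sites, and 643 sites (9.61%) lay over 100 kb from any protein-coding TSS. Long noncoding RNA genes took up few of these, since 166 of 5226 sites outside promoters (3.18%) lay within 1 kb of such a gene's TSS.

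A stringent peak lay within 500 bp of 21.5% ± 0.187 of them, within 5 kb of 54.6% ± 0.257 and within 20 kb of 78.7% ± 0.142 (SD, n = 2 each). Promoter sites were the closest: 655 of 1464 (44.7%) had a stringent peak within 500 bp, against 13.2% of intronic and 14.4% of intergenic sites. At the other end, 10.0% ± 0.0786 lay over 50 kb from any stringent peak. For peaks weak in 1 animal that share was 16.2% in animal 1 and 27.8% in animal 2, higher in both. Within 500 bp the order was the other way, at 24.4% and 23.6% of the peaks weak in 1 animal against 21.35% and 21.61%. Within 1 kb the animals disagreed, at 33.85% and 32.04% of the peaks weak in 1 animal against 32.03% and 32.44%.

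Footprints were called in most reproducible weak peaks. At least 1 footprint overlapped 67.5% of them in animal 1 (Wilson 95% interval 66.4 to 68.6) and 75.6% of those of the other animal (74.5 to 76.5). The mean was 71.5% ± 5.70 (SD, n = 2). Stringent sites stood at 90.5% and 90.6%, and peaks weak in 1 animal at 53.8% and 56.4%. The weak peaks held 1.10 and 1.29 footprints each, against 2.87 and 2.89 at stringent sites, and 9.30% and 12.8% of them held 3 or more. Footprints covered 7.39% and 10.2% of their bases, against 18.03% and 21.4% of the bases of stringent sites. By location, intronic weak peaks had a footprint most often, in 70.5% and 79.2%, and promoter ones least often, in 63.1% and 69.7%. Exonic ones had one in 69.8% and 76.2%, above both promoter values, and intergenic ones in 67.0% and 75.5%.

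Footprints rest on the same cuts as peaks, and the share with a footprint rose with height in every class. At heights of 0.4 to 0.5, 70.3% of reproducible weak peaks in animal 1 and 71.7% in animal 2 had a footprint. Peaks weak in 1 animal had one in 61.8% and 67.0% at that height, and stringent sites in 78.6% and 76.5%. From 0.2 to 0.7 the reproducible weak peaks lay between the other classes in each of the 4 bins of height in both animals. Elsewhere this order did not always hold: from 0.7 to 1 in animal 2 they stood at 85.90% against 85.86% at stringent sites, and above 1 in animal 1 at 81.9% against 84.96% for peaks weak in 1 animal. Below 0.2, only 16 of 80 such peaks in animal 1 and 5 of 39 in animal 2 had a footprint, with intervals of the share from 12.7% to 30.05% and from 5.60% to 26.7%, while stringent sites had one in 17.6% and 26.5%.

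**Figure D3:**
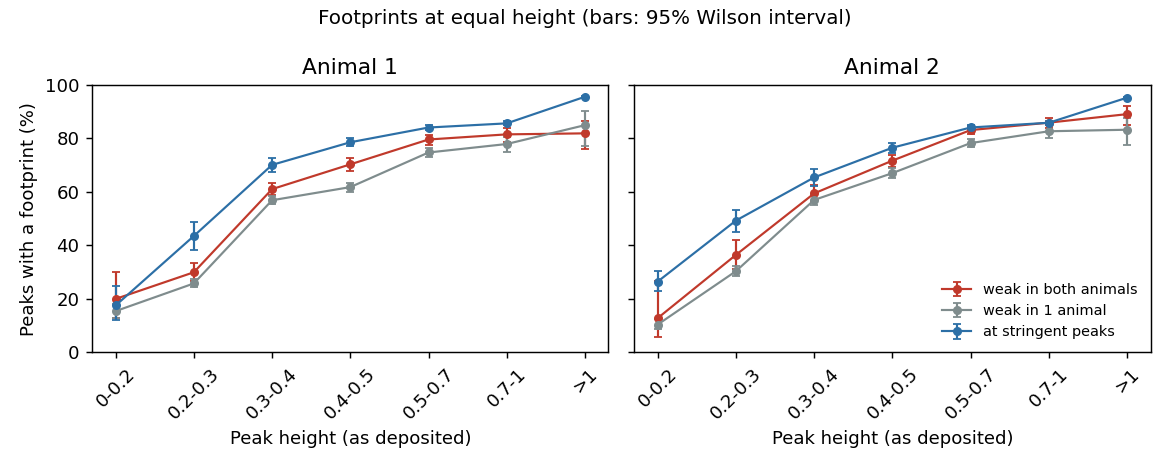
Share of peaks with a footprint (%) by bin of deposited height, with 1 panel per animal and 1 line per peak class; bars are Wilson 95% intervals, which cover counting error only. At heights of 0.4 to 0.5 the reproducible weak peaks stand at 70.3% and 71.7%, between the other classes.

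At the level of the site, most sites had a footprint in both animals, often at different bases. Whether the animals coincided more often than their separate footprint shares imply was not tested. Of the 6690 sites, 3706 (55.4%) had a footprint in both animals, 937 in animal 1 only, 1428 in animal 2 only and 619 (9.25%) in neither. Footprints of the animals overlapped at 2222 sites, 33.2% of all and 59.96% of those with a footprint in both. At 52918 stringent sites the same shares were 81.3% and 91.0%. Per site, overlapping footprints were counted as those of animal 1 that overlap one of animal 2. After Ncf1 the most, 3, were at the promoter of Lrrc25, a myeloid membrane protein gene. Sites in introns near Galnt6, Icosl and Dennd2d also had 3. The site near Icosl held 4 footprints in animal 1 and 2 in animal 2. Icosl encodes the ligand of the T cell costimulator ICOS and is used by B cells. For peaks weak in 1 animal, the other library had a footprint there in 0.274% of the peaks of animal 1 and 0.660% of the peaks of animal 2, so footprints were listed almost only where that library also had a peak.

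In base composition the weak sites were nearly as GC-rich as stringent ones, and their CpG content differed mainly in promoters. Windows of 150 bp on the midpoints had a median GC content of 53.3% in animal 1 and 54.0% in animal 2, close to 54.7% and 55.3% at stringent sites, while the genome stands at 41.7%. The observed over expected CpG ratio had a median of 0.281 and 0.284, against 0.376 and 0.391. Within promoters it was 0.498 and 0.509 against 0.757 and 0.765, and outside them 0.241 and 0.245 against 0.256 and 0.261. Windows with over 50% of their bases masked as repeat made up 8.22% and 8.08% of the weak peaks, 4.15% and 4.13% of the stringent sites, and 10.2% and 17.0% of the peaks weak in 1 animal.

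Against the genome, 12 of 20 motifs were more frequent at reproducible weak peaks in both animals. The genome background was not matched for base composition: its GC content is 41.7%, against medians of 53.3% and 54.0% at weak peaks. The part of base composition in higher or lower shares was not tested. The CTCF motif was in 2.37% of their 150 bp windows in animal 1 and 2.37% in animal 2, against 0.0357% of the genome's windows and 4.62% and 4.58% at stringent sites. PU.1 was in 4.41% and 4.18%, close to 4.82% and 4.38% at stringent sites and over the genome's 0.892%. The ETS motif CGGAAG was in 6.07% and 6.24%, against 11.02% and 11.2%, and the GC box GGGCGG of SP and KLF factors in 11.8% and 12.1%, against 22.8% and 24.4%. NRF1, a factor of CpG island promoters searched as GCGCANGCG, was in 0.527% and 0.495%, against 3.27% and 3.41%. The genome's shares were 1.51% for ETS, 1.46% for the GC box and 0.0694% for NRF1. Relative to stringent sites NRF1 stood lowest, followed by the GC box, CTCF and ETS. Peaks weak in 1 animal were also below stringent sites for these motifs. They had NRF1 in 0.308% and 0.692%, the GC box in 6.41% and 12.8%, CTCF in 1.10% and 1.05% and ETS in 4.65% and 5.62%. The GATA motif AGATAA was in 3.75% and 3.76% of the weak peaks and in 10.2% of the genome's windows, so it was less frequent there than in the genome. The PU.1 and ETS strings differ in their first base before GGAAG, so no stretch matches both in the same place.

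Relative to stringent sites, 7 of 20 motifs were more frequent in both animals and 11 less frequent. Since fewer weak peaks are promoters, the comparison was repeated outside promoters, an alternative chosen after seeing the data. There 4 of 20 motifs were higher in both animals and 12 lower. The E-box CAGCTG was in 15.6% and 16.2% of weak peaks outside promoters, against 13.2% and 13.6% of stringent ones and 5.38% of the genome. AP-1 was in 5.87% and 5.91%, against 5.09% and 4.87%, and the E-box CACGTG in 4.26% and 4.14%, against 3.76% and 4.04%. Over all peaks CACGTG was lower than at stringent sites, at 4.29% and 4.24% against 4.55% and 4.85%. The TCF/LEF motif CTTTGAT, read by the T cell factors TCF1 and LEF1, was in 2.27% and 2.10%, against 1.77% and 1.64%, with both below the genome's 3.06%. CTCF was in 2.88% and 2.87% there, against 6.84% and 6.94%. The Wilson interval of the CACGTG share includes the stringent share in both animals, and those of the other 3 do not. Outside promoters, peaks weak in 1 animal had CAGCTG in 13.4% and 13.65%, CACGTG in 3.025% and 3.24% and TCF/LEF in 1.82% and 1.385%. These were below the reproducible weak peaks in both animals. AP-1 was in 5.96% and 4.15% of them, above the reproducible weak peaks in animal 1 and below in animal 2.

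**Figure D4:**
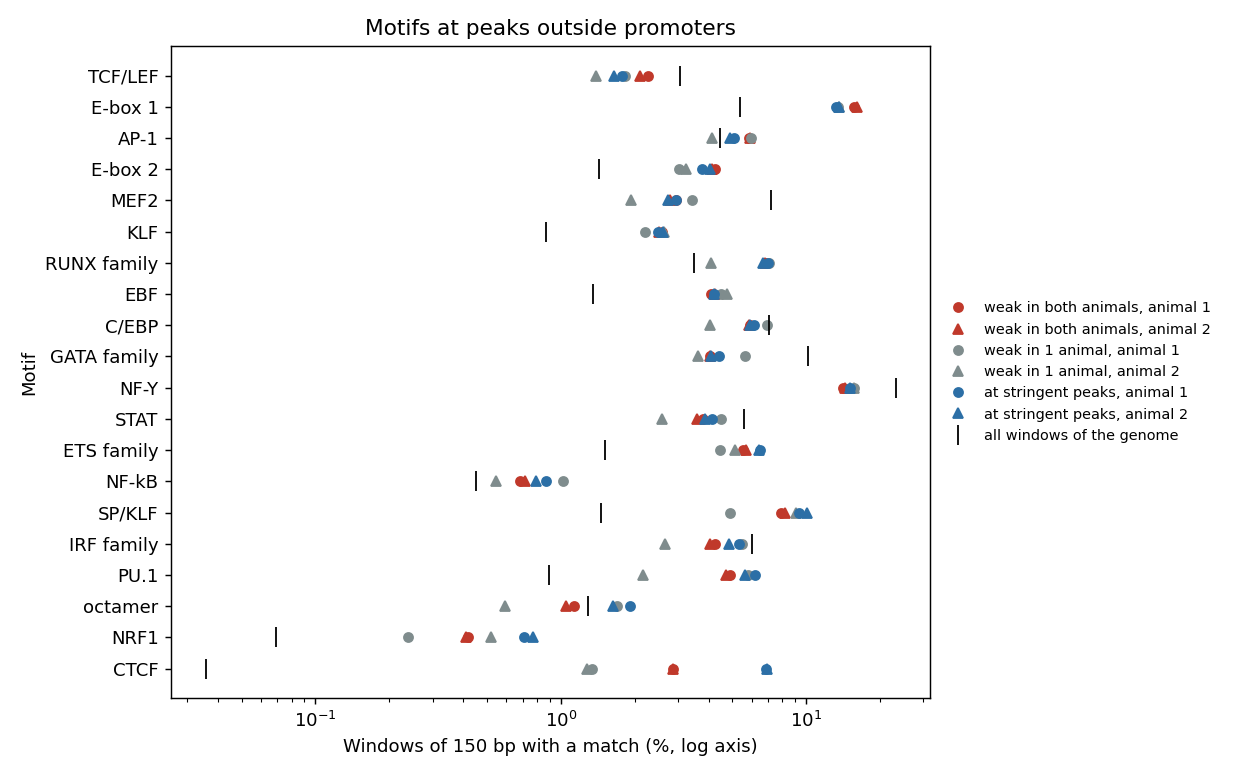
Share of 150 bp windows on peak midpoints outside promoters that hold each of 20 motifs (log axis, %), by peak class and animal; vertical ticks are all windows of the genome. E-box 1 is the CAGCTG motif and E-box 2 the CACGTG motif; CTCF shows the widest gap between reproducible weak (2.88% and 2.87%) and stringent peaks (6.84% and 6.94%).

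Motif matches lay under footprints less often at weak sites. Of the CTCF matches in reproducible weak peaks, 48.1% of 162 in animal 1 and 85.4% of 164 in animal 2 lay under a footprint, against 95.3% and 98.8% at stringent sites. That is the widest gap between the animals among the motifs. CACGTG matches lay under one in 27.9% and 33.5%, and EBF matches were under a footprint in 23.6% and 30.7%, against 45.6% and 47.4%. NRF1 stood at 37.5% and 36.6% on 48 and 41 matches. PU.1 had 13.6% and 12.4%, RUNX 15.8% and 16.7%, and AP-1 14.2% and 15.3%. These shares were counted with each footprint widened by 5 bp, and no share for other bases was computed beside them. Before widening, footprints covered 7.39% and 10.2% of the bases of weak peaks, against 18.03% and 21.4% at stringent sites. Whether matches lay under footprints more often than other bases was not tested. The number of sites with a match under footprints of both animals was 64 for the GC box, 50 for NF-Y, 45 for CTCF and 37 for CAGCTG, and 0 for the STAT motif TTCNNNGAA.

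The highest site was an intergenic site 28979 bp from Ly6e at heights of 2.71 and 1.68 in animals 1 and 2, with a mean of 2.19 ± 0.729 (SD, n = 2). Clcf1, a B cell stimulating cytokine gene, had one in its promoter at 1.36 and 2.23, only 80 bp from a stringent peak. A promoter site of Tnfrsf13c, which encodes the BAFF receptor of B cells, stood at 1.76 and 1.79, and a site near the lymphocyte GTPase gene Gimap9 at 1.73 and 1.72. The rest of the 10 highest lay near Dnajb12, Btg2, Ncf1, Rara, H2-Eb2 and H2-Ob, with means of 1.71, 1.69, 1.63, 1.60, 1.55 and 1.51. H2-Eb2 and H2-Ob belong to the MHC class II family. All 10 nearest genes also had a stringent promoter peak, and 8 of the 10 sites had a stringent peak within 1.2 kb. With the exceptions of Ly6e, Clcf1, Btg2, Ncf1 and Rara, the animals' heights differed by less than 0.1.

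At 326 of 21938 protein-coding genes (1.49%) a reproducible weak site was the best that the promoter had, with no stringent peak in either animal. Here a peak counted for a promoter when it overlapped the 1 kb on either side of a TSS by 1 bp or more, so its midpoint may lie outside. A stringent peak was at 12867 promoters, some other weak peak only at 892 and no peak at 7853. The median CpG ratio of these 326 promoters was 0.494, close to 0.508 at the 892 with some other weak peak only. Both lie between 0.718 at promoters with a stringent peak and 0.189 at those with no peak. They carry 342 sites with a median height of 0.444, and 182 of these (53.2%) had a footprint in both animals. In 180 of the genes the site was within 100 bp of a TSS. The 10 highest, looked up after the values were seen, were in order Lrrc25, Tbx6, Celf5, B230217C12Rik, Ccr6, Sapcd1, Plcd3, Cnih2, Il12rb1 and C5ar2, with mean heights from 1.41 to 0.933. Genes used by blood cells and genes known from other tissues both occurred among them. Lrrc25 had 1.24 and 1.58, 33 bp from its TSS. Tbx6, a factor of the embryonic mesoderm, had 1.02 and 1.14, and Plcd3, a phospholipase gene, 0.845 and 1.19. Ccr6, the chemokine receptor that guides B cells and some T cells, had 1.15 and 0.957, and Il12rb1, a chain of the interleukin 12 receptor, 0.716 and 1.17. C5ar2, a complement receptor gene of myeloid cells, had 0.903 and 0.964. Celf5, a brain RNA-binding protein gene, had 0.946 and 1.22, and Cnih2, an auxiliary subunit of neuronal glutamate receptors, 0.838 and 1.14.

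Of the 245 genes on 16 lists of spleen cell types, 10 (4.08%) had such a weak-only promoter, beside 1.49% of all protein-coding genes. Of the 59 genes of other tissues 1 did, and of 1464 olfactory and vomeronasal receptor genes 2 did (0.137%). The 10 genes came from 7 lists, and the other 9 lists had none. Among those 9, the B cell list (18 of 18) and the T cell list (23 of 26) mostly held stringent promoter peaks. In the macrophage list 13 of 26 promoters held no stringent peak, in the endothelial list 11 of 19 and in the mast cell list 9 of 11, and none of these was weak-only.

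Other genes of the same cells mostly had no promoter peak or a stringent one. In the neutrophil list 11 of 16 genes had no peak, among them Elane, Mpo and S100a8. In the dendritic cell list 8 of 13 had a stringent peak and 4 none, Clec9a and Xcr1 among the latter, and in the erythroid list 8 of 19 had a stringent peak and 8 none, Gata1 and Alas2 among the latter. Prtn3, a neutrophil granule protease, had 0.788 in animal 1 and 0.957 in animal 2, 72 bp from its TSS, with a footprint in both. Cebpe, the factor of late granulocyte maturation, had 0.480 and 0.604 at 845 bp. Batf3, which cross-presenting dendritic cells need, had 0.516 and 0.876 at 31 bp. Procr, a surface marker of blood stem cells that endothelium also makes, had 0.580 and 0.767 at 15 bp. Tal1, a regulator of red cell and stem cell genes, had 0.501 and 0.638, and Eomes, a factor of NK and memory T cells, 0.494 and 0.536. Each of these sites was higher in animal 2, as were most sites of the set.

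The stromal and vessel wall genes among them were Nr2f2, Col1a2, Tcf21 and Notch3. Notch3, a receptor of pericytes, had 0.501 and 0.740 at 745 bp from its TSS. Nr2f2, an orphan nuclear receptor of veins and stroma, had 0.559 and 0.659 at a site whose midpoint is intronic, 1139 bp from the TSS, and whose edge reaches the promoter. It lies 460482 bp from the nearest stringent peak. Col1a2, a chain of type I collagen, had 0.301 and 0.448 with no footprint in either animal. Tcf21, a mesenchymal factor used in spleen formation, had 0.322 and 0.353 at 46 bp. The gene of another tissue was Snap25, a synaptic protein gene, with 0.337 and 0.333.

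By nearest gene, 4686 of 21911 gene symbols (21.4%) were nearest to at least 1 site, and 80 of the 245 spleen genes (32.7%) were. A gene with more peaks has more chances to hold a weak one, so the weak sites were also counted as a share of all longer-list peaks nearest to a list's genes. Over all genes that share was 8.61% and 8.90%. Stromal and spleen organogenesis genes had 17.4% (15 of 86 peaks, interval 10.9 to 26.8) and 17.9% (15 of 84, 11.1 to 27.4). Stem and progenitor genes had 15.5% (9.60 to 24.0) and 19.0% (11.9 to 29.0), and endothelial genes 16.0% (9.40 to 25.9) and 15.2% (8.91 to 24.7). In these 3 of the 16 spleen lists the interval lay above the share of all genes in both animals. For endothelial genes in animal 2 it did so narrowly, from 8.908% against 8.897%. The intervals treat peaks as independent, although several peaks are nearest to the same gene, and were not used as a test. Both animals' counts rest on nearly the same sites, and 4 of the 12 endothelial sites are nearest to Cdh5. Smooth muscle, erythroid and dendritic cell genes had 17.6% and 17.6%, 14.0% and 15.2%, and 13.4% and 15.0%.

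T cell genes had 10.6% and 10.2%, B cell genes 7.35% and 7.83%, and germinal centre and plasma cell genes 6.09% and 6.31%, each with an interval that includes the share of all genes. When only peaks within 50 kb of a TSS were counted, B cell genes had 4.82% and 4.64% (8 of 166 and 7 of 151 peaks), beside 8.29% and 8.55% over all genes, with intervals of 2.46 to 9.22 and 2.26 to 9.26. Macrophage genes had 6.98% and 8.22%, megakaryocyte genes 7.27% and 7.14%, and housekeeping genes 1.61% and 3.28%. In all, 9 of the 16 spleen lists lay above the share of all genes in both animals and 7 below it, and 3 had no site at all, those of mast cells, mesothelium and Schwann cells, on 7 to 20 peaks. Genes of other tissues pooled gave 12.1% and 11.5%, beside 10.6% and 11.3% for the spleen lists pooled. Central neuron genes alone had 17.6% (interval 9.57 to 30.25) and 15.7% (8.17 to 28.0). Their interval lay above the share of all genes in animal 1 and included it in animal 2. Keratinocyte genes had 3 of 18 and 3 of 12 peaks, although the spleen holds neither neuron cell bodies nor epidermis.

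**Figure D5:**
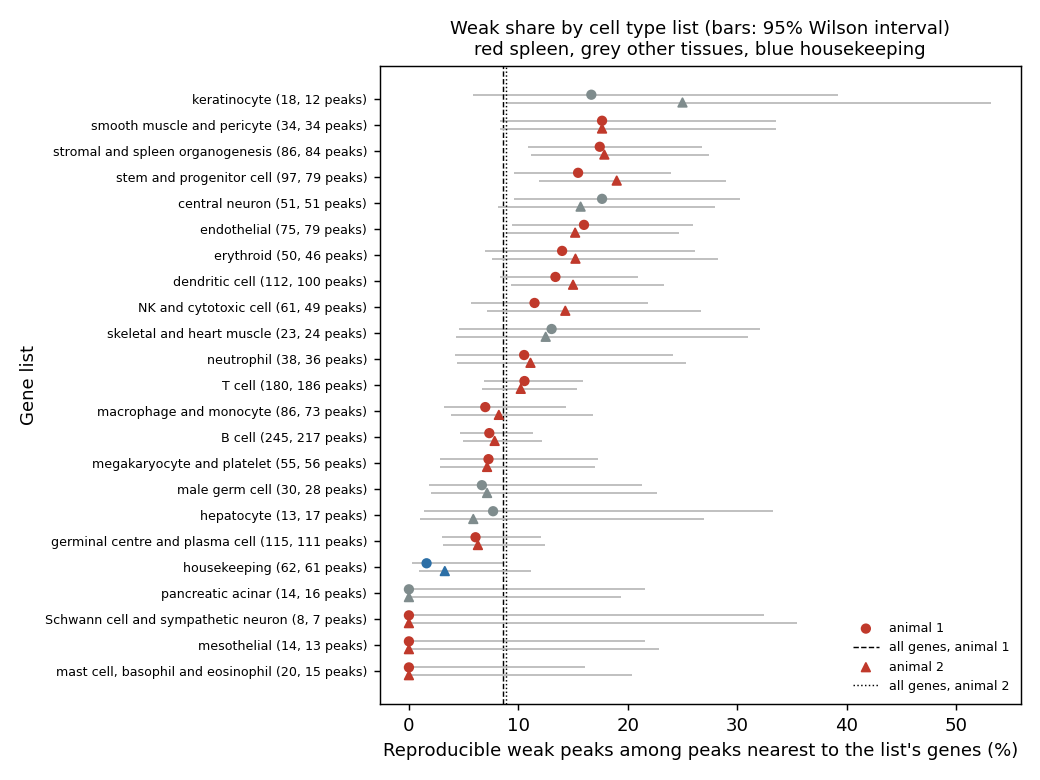
Share (%) of the longer-list peaks nearest to each list's genes that are reproducible weak peaks, by list and animal; bars are Wilson 95% intervals over peaks and vertical lines the shares over all genes (8.61% and 8.90%). Stromal, stem cell and endothelial lists lie right of the lines with their whole interval, and B cell, macrophage and plasma cell lists lie across them. The dendritic cell list lies right of them in animal 2 only, and the central neuron list, of another tissue, in animal 1 only.

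Within the lists, the highest sites were the following, the 3 highest of each list being inspected after their values were known. Irf8, a factor that dendritic cells, B cells and macrophages all use, had 5 sites nearest to it. The 3 highest stood at 1.44 and 1.51, at 1.38 and 1.51 and at 1.52 and 1.28 in animals 1 and 2, and they lie 6024, 2014 and 1368 bp from the TSS. Cd5l, a secreted protein gene of tissue macrophages with no promoter peak, had a site 3491 bp away at 1.18 and 1.13. Fli1, an ETS factor gene of megakaryocytes that most blood cells use, had one at 1.13 and 1.03 with 9 and 3 footprints. Fcrla, a B cell gene, had 1.05 and 0.869, and Prtn3 had a second site at 0.817 and 1.09, 1709 bp from its TSS. Runx1, the stem cell factor, had 0.645 and 0.971, and Tlx1, the homeobox gene of spleen formation, 0.487 and 0.679. Cdh5, the cadherin of endothelial junctions, was nearest to 4 sites of 14 peaks in animal 1 and 19 in animal 2, and Hlf, a stem cell factor, to 3 of 7.

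Most genes had few sites: 3411 were nearest to 1, 856 to 2 and 419 to 3 or more. The most, 11, fell to B3gnt2, an enzyme of sugar chain synthesis, where weak sites made up 39.3% of 28 peaks in animal 1 and 44.4% of 27 in animal 2. They stood between 0.495 and 1.28, and 6 of the 11 had a footprint in both animals. Bcor, a repressor partner of BCL6, and Vmn1r2 had 9 each. Foxp1, a factor of B cell development, Pced1b and Zmiz1 had 8, and Foxn3, Hivep2, Pde4d and the growth regulator Myc had 7. The Myc sites lie 59028 to 820172 bp from its TSS. All of these genes but Vmn1r2 had a stringent promoter peak.

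The sites near Vmn1r2 differ from the others. They lie between 3050048 and 3176994 on chromosome 4 and had a median height of 0.177. In 5 of the 9 over 50% of the bases are masked as repeat, and none had a footprint in both animals. Over all 6690 sites 554 (8.28%) were of that repeat kind. The part that repeats play in these counts was not tested.

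Autosomes held 2.65 sites per Mb, from 2.13 on chromosome 3 to 3.90 on chromosome 11, where peaks at stringent sites stood at 16.7 and 37.6 per Mb in animal 1. As a share of the longer-list peaks the autosomes ranged only from 8.17% to 9.79%. The X chromosome, present in 1 copy in these males, held 0.924 sites per Mb, or 7.50% ± 0.102 (SD, n = 2) of its peaks, below every autosome. The Y chromosome held 7 sites.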

How the data were processed

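DNase-seq peaks, footprints and cut-rate intervals of 2 spleen libraries were used. The reads were aligned to mm10 library by library and never pooled, per the file listings that the authors deposited. Which aligner, callers and thresholds were used is not given in the sources used here. Each library has 2 deposited peak lists, and within them only position and height vary. The height is a signal whose unit is not stated; every value lay within 0.00737 of a step from a whole multiple of 1 step per library. The authors' cut-rate files give an FDR (q-value) per interval and list only values under 0.05. The deposited footprint files hold a constant 0.01 beside each position, so footprints cannot be ranked. Total read depth is not given.

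Genes are from GENCODE M21 and sequence from GRCm38.p6, which has the mm10 sequence; repeats are its masked bases. Promoters span 1 kb on each side of any TSS of 21938 protein-coding genes, and a peak took the location of its midpoint, with promoter ranking before exon, exon before intron and intron before intergenic. Footprints counted with 1 bp of overlap. The 20 motifs were searched on both strands in 150 bp windows; for matches under footprints, each footprint was widened by 5 bp. Of 316 list symbols 314 were found. The members, lists and rules were chosen with earlier results of these data known. Sites named were the 10 highest, list promoters without a stringent peak, the highest site per motif and those at the limit. The site per motif was chosen off chromosome 18 and with no overlap of an untranslated region. Also named were the extremes of the height ratio, the sites with most shared footprints and the 10 genes nearest to most sites. Scripts used Python 3.11.15, numpy 2.4.6 and pandas 2.3.3 and were tested on simulated data. Alternatives are given in the closing section.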

Additional observations from a re-analysis of the deposited data

How the results depend on the processing

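No paired analysis was possible because the series has 1 group. With a required overlap of 50% of both peaks the number of sites was 4776, with no stringent peak within 500 bp 5307 and without X and Y 6525. The promoter share was 14.2% with promoters of 500 bp, 30.1% with 2 kb, 22.3% in the higher 50% of the sites and 15.9% with no stringent peak within 500 bp. In the same order the exon share was 6.65%, 3.77%, 5.60% and 5.29%, the intron share 40.6%, 31.2%, 39.8% and 39.4%, and the intergenic share 38.5%, 34.9%, 32.4% and 39.5%. Each of these 16 values moved by more than the animals' spread, which is small by construction. The footprint share was 81.1% in the higher 50% of the sites, and 67.5% to 75.6% with 1 animal left out. The share near a stringent peak was 32.2% within 1 kb and 78.7% within 20 kb. With 50% overlap the weak-only promoters fell to 211; other promoter definitions gave 295 to 345. Pooled spleen lists gave 10.6% under both other rules for the nearest gene, while single lists moved beyond the animals' spread in 13 of 23 cases within 50 kb and 12 of 23 with the most 5' TSS. Relative to stringent peaks, 1 of 20 motifs changed direction with 300 bp windows and 4 of 20 outside promoters. Among single lists, B cell genes moved by over 1.5 times, from 7.59% to 4.73% within 50 kb, and hepatocyte genes, on 13 and 17 peaks, from 6.79% to 0. Total depth is not given in the sources used here, so its limit on the lowest sites was not measured.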
